A study of Mus musculus with 12 samples.

Results

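Microglia, the resident macrophages of the retina, were followed through 10 genes in RNA of mouse retinas whose rods had lost Shp2. The genes were taken by name from a table of 56748 genes, and each of the 10 symbols matched 1 gene. Of these, 8 are microglia markers (Cx3cr1, Csf1r, C1qa, C1qb, C1qc, Tyrobp, Aif1 and P2ry12). The other 2, Lcp1 and Nckap1l, are genes of blood-lineage cells that were selected on a measured value, their lower level in KO rods than in control rods. The question was whether that difference followed the other microglia genes. The rod values of Lcp1 and Nckap1l are therefore given as a description without a p-value, and tests are kept to the 8 markers and to comparisons that did not choose the pair.

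RNA was sequenced in 12 libraries from 2-week-old mice, with 3 libraries in each of 4 groups. Every mouse was homozygous for RiboTag, an Rpl22 allele that gains an HA tag after Cre recombination, and carried i75 rhodopsin-Cre, which is driven by the rod opsin promoter. The control (Het) mice had 1 floxed Shp2 allele and the KO mice had 2, so both genotypes carried Cre and a floxed allele. Library titles call the controls wt, whereas their genotype is listed as a rod heterozygote. Retina libraries hold total RNA of the tissue before ribosome capture, and rod libraries hold RNA bound to HA-tagged ribosomes (TRAP), both from tissue perfused with cycloheximide. Rod and retina libraries thus differ in the capture step, which also sets the cells whose RNA is held. The parts of capture and of cell type cannot be told apart here. No source says whether libraries of a group came from separate mice, so p-values measure the spread between these libraries.

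Microglia enter the retina before birth, settle in the plexiform layers and survey neurons with motile processes. They depend on signalling through the receptor Csf1r, respond to neuronal fractalkine through Cx3cr1 and to nucleotides through P2ry12, and mark synapses for removal with complement C1q. Lcp1 (L-plastin) bundles actin filaments, and Nckap1l (Hem1) is the blood-lineage subunit of the WAVE complex, which starts branched actin networks.

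Promoters are shown for genes whose values moved together across the retina libraries (C1qb and C1qc, neighbours with C1qa on chromosome 4) and for both starts of Lcp1, whose values did not move with them. RefSeq (GRCm38.p6) gave a window for 6 of the 10 genes. Each run holds the 250 bases before a RefSeq start, 5′ to 3′ on the gene's strand, and capitals mark GAGGAA, the core that PU.1 (the macrophage factor Spi1) is known to bind, or its reverse complement.
C1qb, chr4:136886201-136886450, minus strand: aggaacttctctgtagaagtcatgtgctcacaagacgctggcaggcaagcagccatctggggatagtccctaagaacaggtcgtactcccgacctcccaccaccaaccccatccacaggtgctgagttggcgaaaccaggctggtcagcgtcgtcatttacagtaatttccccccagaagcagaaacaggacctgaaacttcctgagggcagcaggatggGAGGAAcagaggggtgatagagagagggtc
C1qc, chr4:136892915-136893164, minus strand: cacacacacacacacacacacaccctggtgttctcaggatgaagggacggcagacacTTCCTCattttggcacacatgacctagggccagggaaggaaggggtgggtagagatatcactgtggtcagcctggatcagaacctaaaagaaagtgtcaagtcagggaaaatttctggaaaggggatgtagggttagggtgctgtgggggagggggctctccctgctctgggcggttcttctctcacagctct
Lcp1 first start, chr14:75130873-75131122, plus strand: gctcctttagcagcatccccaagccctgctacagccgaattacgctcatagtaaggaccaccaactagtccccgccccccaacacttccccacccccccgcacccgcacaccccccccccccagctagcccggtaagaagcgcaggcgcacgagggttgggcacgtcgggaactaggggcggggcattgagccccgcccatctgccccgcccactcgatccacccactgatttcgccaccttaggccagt
Lcp1 second start, chr14:75136175-75136424, plus strand: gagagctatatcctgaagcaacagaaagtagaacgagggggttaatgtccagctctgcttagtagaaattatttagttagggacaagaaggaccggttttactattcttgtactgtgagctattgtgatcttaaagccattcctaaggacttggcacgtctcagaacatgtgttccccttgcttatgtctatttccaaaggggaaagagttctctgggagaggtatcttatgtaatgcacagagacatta
The core, searched on both strands, was present in 3 of the 7 windows of these genes (C1qb, C1qc and Aif1) and in 23.3% of 32851 windows of the same length. It ended in GT, as in the longer PU.1 site, in 1 of the 7 windows (C1qc) and in 2.44% of all windows, and these matches are a subset of the first. Neither GGAA and GAAA with 2 bases between (2.3% of all windows) nor TATAAA (12.4%) occurred in the 7 windows. The core was absent from the windows of Lcp1 and also from those of the markers Cx3cr1 and P2ry12. A match or its absence describes the letters of the window only.

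Values are those deposited, read counts multiplied by 1 factor per library. The library totals were almost equal within a fraction, from 14525527 to 14527992 in retina and from 16263948 to 16265259 in rods. The reads behind them were estimated at 9980000 to 19230000 for retina and 11890000 to 25280000 for rods. Levels are also given as ppm, parts of a library total set to 1000000. Ptpn11, which encodes Shp2, was at 2511, 2439 and 2431 in Het rods. KO rods held 1735, 2139 and 1971, which does not overlap with Het (log2 fold change -0.26, SE 0.09, limma adjusted p = 0.0636). In 20.4% of all genes tested, every KO rod library was likewise below every Het one. All 12 of 12 rod genes were higher in Het rods than in Het retina, against 21.4% of all genes tested. Calls needed both a limma adjusted p below 0.05 and an absolute log2 difference above 0.5.

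Het rod replicate 3 stood apart from the other rod libraries. There, 46 genes had a value of at least 50 and over 3 times that of each other rod library, against 0 in Het rod replicates 1 and 2, 1 each in KO rod replicates 1 and 2, and 13 in KO rod replicate 3. Of the 46 genes, 34 are annotated pseudogenes, and the 12 others include Lcp1 and Nckap1l. Their companions, singled out after their values were seen, include Top2a, a topoisomerase of dividing cells (Het rods 24, 41 and 420, KO rods 0, 50 and 11). Lef1, a lymphoid transcription factor, was at 2, 13 and 126 in Het rods against 0, 35 and 2 in KO rods. The membrane linker Msn was at 31, 21 and 167 in Het rods against 5, 25 and 19 in KO rods. Values of Lcp1 and Nckap1l are given below with and without this library, and its part in them was not tested. The reads were not analysed here, so whether all RNA of this library came from the labelled sample was not checked. Its values of 180 for Lcp1 and 106 for Nckap1l are therefore values of the library labelled Het rod replicate 3, without a check that they are those of rods.

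KO retina replicate 3 stood apart among the retina libraries. By the same measure 56 genes were far above the other 5 retina libraries there, none of them a member, against 0 to 2 in each of the others. Its 5 genes of the retinal pigment epithelium (RPE) summed to 7579, against 278 to 2957 in the other retina libraries. The part of this library in the retina values was not tested, and the genotype comparison in retina is given with and without it.

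In whole retina every one of the 10 genes was detected in all 6 libraries. Csf1r, the receptor for the growth factors Csf1 and Il34, had the highest values: 122, 218 and 113 in Het retina and 148, 82 and 252 in KO retina. The fractalkine receptor gene Cx3cr1 was at 60, 100 and 77 in Het and at 61, 66 and 72 in KO retina. These were the steadiest values of the set in KO retina after P2ry12, with a coefficient of variation of 8.29%. P2ry12, the receptor that draws microglial processes to released nucleotides, was at 37, 27 and 49 in Het and at 23, 24 and 25 in KO retina. Tyrobp, the adaptor of Trem2 and related receptors, was at 34, 37 and 40 in Het and at 33, 25 and 56 in KO retina. Aif1, which encodes the microglia stain Iba1, was the lowest of the 8, at 12, 8 and 18 in Het and at 15, 11 and 11 in KO retina.

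The C1q genes encode the chains of the first complement component. In Het retina replicates 1 to 3, C1qa was at 34, 88 and 46, C1qb at 32, 92 and 49, and C1qc at 24, 62 and 28. In KO retina they were at 35, 34 and 95 (C1qa), 58, 37 and 112 (C1qb) and 35, 10 and 82 (C1qc). For all 3 genes the highest libraries were Het replicate 2 and KO replicate 3, and the groups overlapped. Lcp1 was at 21, 21 and 45 in Het and at 21, 35 and 28 in KO retina, and Nckap1l at 28, 55 and 71 in Het and at 67, 53 and 82 in KO retina. Retina values of the pair were thus within the range of the markers.

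**Figure D1:**
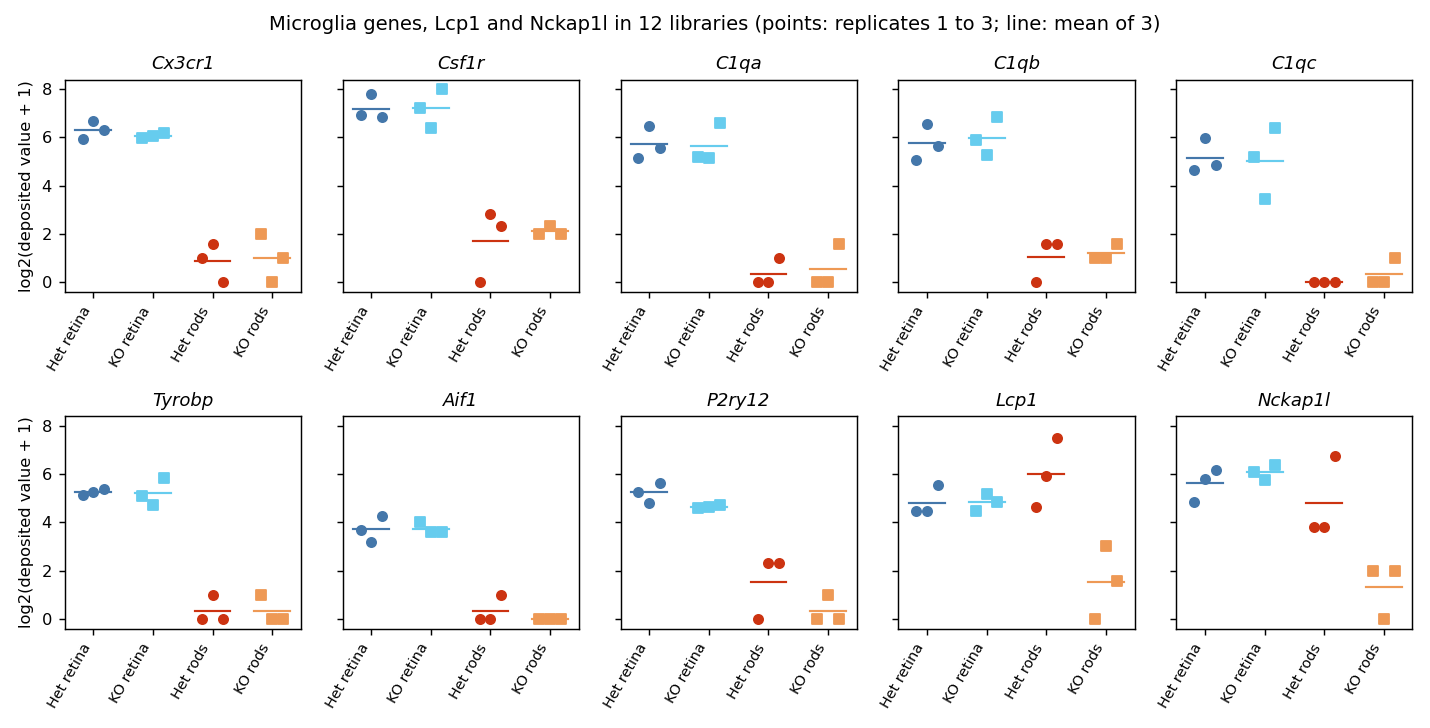
Each panel plots log2 of the deposited value plus 1 for 1 gene in the 4 groups, with 3 replicates as points and their mean as a line. The 8 marker genes fall from 8 or more in every retina library to 6 or less in every rod library, whereas Lcp1 and Nckap1l reach 180 and 106 in Het rods.

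In ppm per kilobase of exon, the retina level was highest for Tyrobp (3.82 ± 0.31 in Het, SD, n = 3), C1qa (3.71 ± 1.88) and C1qb (3.65 ± 1.96). Csf1r (1.8 ± 0.69), C1qc (1.35 ± 0.74), Cx3cr1 (1.21 ± 0.31) and P2ry12 (1.02 ± 0.30) followed in Het retina. Nckap1l (0.60 ± 0.25), Aif1 (0.57 ± 0.23) and Lcp1 (0.21 ± 0.10) were the lowest. Ordered by the median of the 6 retina libraries, every neighbouring pair overlapped in range except Aif1 and Lcp1, whose lowest and highest values were 0.36 and 0.33. Lcp1 was thus the gene at the bottom of the order on this scale, with a range of 0.15 to 0.33.

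In rod libraries the 8 markers were nearly absent in both genotypes. Het rods replicate 1 held a value of 1 for all 8 genes together, replicate 2 held 15 and replicate 3 held 12. KO rods held 8, 6 and 9, inside the Het range. The summed level was 32.3 ± 9.97 ppm in Het retina and 0.574 ± 0.453 in Het rods (SD, n = 3), so the rods were at 1.78% of the retina. In KO mice it was 32.2 ± 14.7 in retina and 0.471 ± 0.0939 in rods, which is 1.46%. Rod libraries hold RNA captured on tagged ribosomes, so these percentages do not measure numbers of microglia or RNA per cell. In whole retina, fewer cells of a type and less RNA per cell cannot be told apart.

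Gene by gene, 25 of the 48 rod values of the markers were 0, and 41 were at or under the value of 3 reads. Csf1r was at 0, 6 and 4 in Het rods against 3, 4 and 3 in KO rods. C1qb was at 0, 2 and 2 in Het and at 1, 1 and 2 in KO rods, and Cx3cr1 at 1, 2 and 0 in Het and at 3, 0 and 1 in KO rods. P2ry12 was at 0, 4 and 4 in Het rods against 0, 1 and 0 in KO rods, which overlap. C1qa, Tyrobp and Aif1 did not exceed 2 in any rod library. C1qc was at 0 in all Het rod libraries, at least 45.8-fold lower than in Het retina when 3 reads over the group set the limit. Aif1 was at 0 in all KO rod libraries, by the same limit at least 12.7-fold lower than in KO retina.

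Against retina of the same genotype, limma called 7 of the 7 markers tested lower in Het rods and 8 of 8 in KO rods, where 36.8% and 36.5% of all genes tested were called lower. The median log2 difference was -4.09 in Het and -3.94 in KO, compared with -0.11 and -0.02 over all genes. The smallest difference in Het was that of P2ry12 (-3.04, SE 0.49, adjusted p = 0.000674), and the largest was that of Csf1r (-4.81, SE 0.55, adjusted p = 8.14e-05). Aif1 was too low to be tested in Het and had the smallest difference in KO (-2.67, SE 0.31, adjusted p = 8.57e-05). These folds rest on a pseudocount of 2, which understates the change of genes this low.

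Lcp1 and Nckap1l did not share this pattern in Het rods, where their choice favoured high values. Lcp1 was at 24, 59 and 180 in Het rods against 21, 21 and 45 in Het retina, and its log2 difference was 1.41 (SE 0.65). Nckap1l was at 13, 13 and 106 in Het rods against 28, 55 and 71 in Het retina (log2 difference -0.56, SE 0.75). For both genes the 2 fractions overlapped. In ppm, Het rods held 270.0% of the retina level of Lcp1 and 76.6% of that of Nckap1l, while the 8 markers ranged from 0 to 6.32%. Without Het rod replicate 3 the log2 difference was 0.68 for Lcp1 and -1.52 for Nckap1l.

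In KO rods both genes were low, as the choice of the pair requires. Lcp1 was at 0, 7 and 2, and Nckap1l at 3, 0 and 3. Relative to KO retina the log2 difference was -2.58 (SE 0.55) for Lcp1 and -3.95 (SE 0.45) for Nckap1l, or 9.57% and 2.65% of the retina level in ppm. The 8 markers in KO rods were at 0 to 1.85%. In KO rods all 3 values of Nckap1l and 2 of the 3 of Lcp1 were at or under the value of 3 reads. The order of the pair and the markers there is therefore uncertain.

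**Figure D2:**
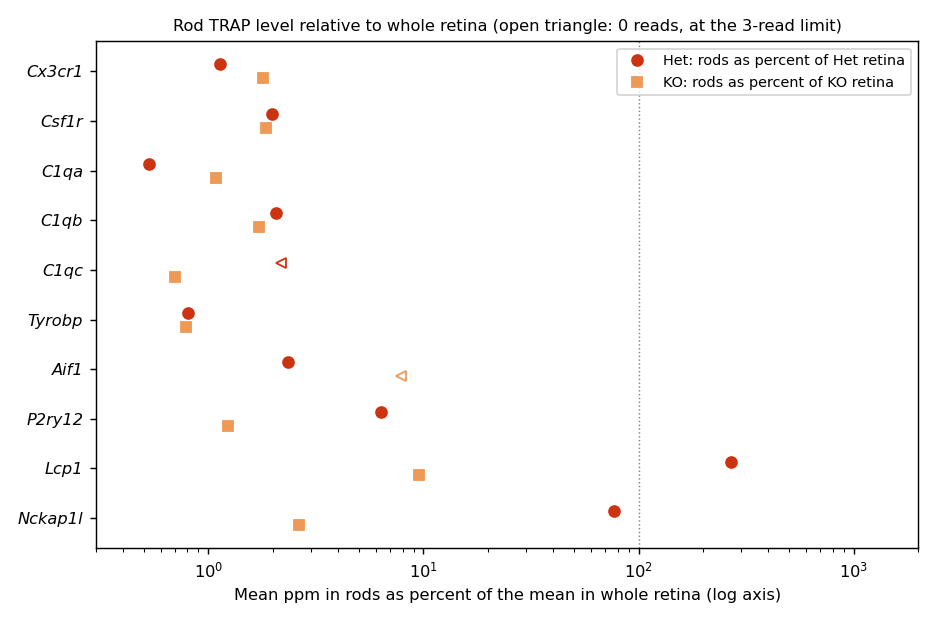
Points give the mean ppm in rods as a percent of the mean in whole retina (log axis) for each gene, with Het as circles and KO as squares, and open triangles place genes with 0 reads at the limit of 3 reads over the group. Lcp1 (270.0%) and Nckap1l (76.6%) in Het rods lie far to the right of the 8 markers and of their own values in KO rods.

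Set against the summed markers, the pair was far higher in Het rods than in retina. The choice of the pair favoured high values in Het rods, so these proportions describe the chosen values and test nothing. In retina, Lcp1 made up 3.32% to 12.1% of the summed value of the 8 markers and Nckap1l 7.89% to 18.3%. In Het rods replicates 1 to 3, Lcp1 was 2400%, 393% and 1500% of the marker sum. At the proportion of Het retina (6.18%), marker sums of 1, 15 and 12 would come with Lcp1 values of 0.0618, 0.928 and 0.742, where 24, 59 and 180 were measured. For Nckap1l the same proportion (10.9%) gives 0.109, 1.64 and 1.31, where 13, 13 and 106 were measured. In KO rods the measured values of Lcp1 (0, 7 and 2) stood against 0.479, 0.359 and 0.539 at the proportion of KO retina, and those of Nckap1l (3, 0 and 3) against 1.15, 0.864 and 1.30. In KO rods replicates 1 to 3, Lcp1 was 0%, 116.7% and 22.2% of the marker sum and Nckap1l 37.5%, 0% and 33.3%. Those above 0% exceeded the retina range, but they rest on values of 7 or less against marker sums of 6 to 9.

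Between genotypes, Lcp1 in rods went from 24, 59 and 180 to 0, 7 and 2, a mean of 5.39 ppm against 0.184 ppm. The fitted log2 fold change was -3.93 (SE 0.86). Nckap1l went from 13, 13 and 106 to 3, 0 and 3 (log2 fold change -2.93, SE 0.81), a mean of 2.71 ppm against 0.123 ppm. In neither gene did the groups overlap, and no p-value is given, since this comparison chose the pair. In this fit 13.1% of 13055 genes were called, 1.91% lower, and in 20.4% all KO libraries were below all Het libraries. Both genes passed the filter on low values only through Het rods, so they had to differ.

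Het rod replicate 3 held the highest value of both genes. Without it the log2 fold change was -3.20 for Lcp1 and -1.98 for Nckap1l, and the ratio of means went from 29.2 to 13.8 for Lcp1 and from 22.0 to 6.50 for Nckap1l. Leaving out each of the 6 rod libraries in turn gave ratios of 13.8 to 87.7 for Lcp1, highest without KO rod replicate 2, and of 6.50 to 29.7 for Nckap1l. Without KO rod replicate 1 the ratio for Lcp1 was 19.5, and without KO rod replicate 2 that for Nckap1l was 14.7.

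The 8 markers did not pass the filter in the rod comparison. When every gene was kept, none of the 8 was called, and their log2 fold changes ran from -0.83 (P2ry12) to 0.27 (Csf1r), with 6 of the 8 above 0. That fit called 1779 genes. Its median over all genes was 0.01, the value of Tyrobp, so a sign above 0 says little at such low values. Marker sums in Het rods were, in ppm, 0.0615, 0.922 and 0.738, and in KO rods 0.492, 0.369 and 0.553. Exact Poisson 95% intervals on the estimated reads ran from 0.00188 to 0.413 in Het rod replicate 1 and from 0.577 to 1.37 in replicate 2, and cover counting error only. Het rod replicate 1 had the lowest marker sum of the 6, an estimated 1 read, and held 24 for Lcp1 and 13 for Nckap1l. Both values were above every KO library, as the choice of the pair favours. The difference in Lcp1 and Nckap1l was thus not accompanied by a like difference in the marker sum, although at these levels only a large change of the markers would have been detectable.

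**Figure D3:**
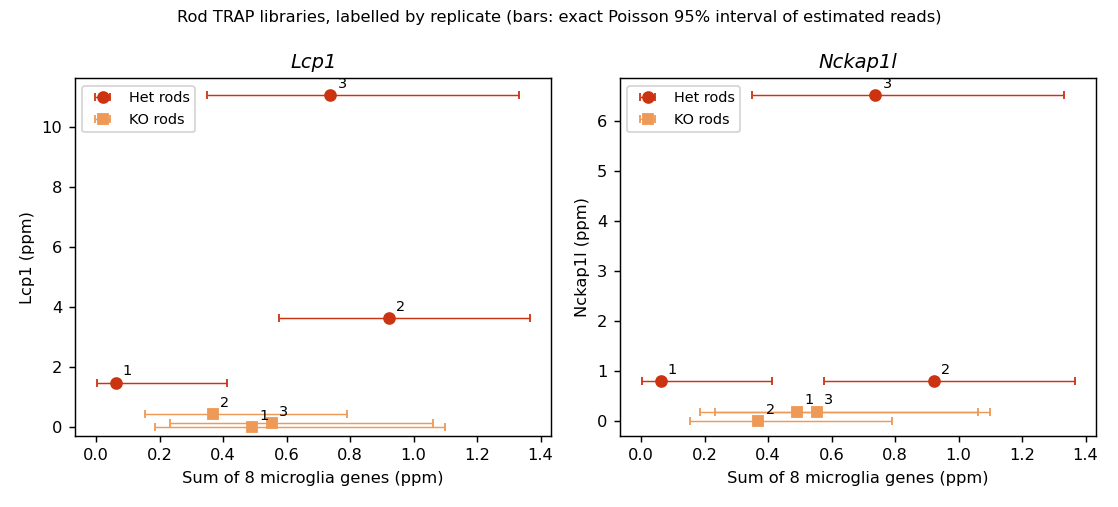
Each point is 1 rod library, numbered by replicate, with the summed level of the 8 markers in ppm on the horizontal axis (bars, exact Poisson 95% interval) and Lcp1 or Nckap1l in ppm on the vertical axis. KO libraries (0.369 to 0.553) lie within the horizontal range of the Het libraries (0.0615 to 0.922) and below all of them vertically.

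Whole retina, the comparison that did not choose the pair, gave no call for any of the 10 genes. Nckap1l was higher in KO by 0.46 on the log2 scale (SE 0.38, limma adjusted p = 1), and Lcp1 by 0.02 (SE 0.38, adjusted p = 1). The groups of both genes overlapped. P2ry12 had the largest difference, -0.57 (SE 0.29, adjusted p = 1), and all its KO libraries (23 to 25) were below all Het libraries (27 to 49), as in 1.99% of all genes. The other 7 markers lay between -0.21 (Cx3cr1, SE 0.26) and 0.24 (C1qb, SE 0.51), with overlapping groups. In all, 0 of 16863 genes were called by limma (percent called 0) and 140 had an unadjusted p below 0.05. The SE of C1qc was 0.71, the widest of the 10 genes. Without KO retina replicate 3 the log2 fold changes of C1qa (-0.58), C1qc (-0.83), Csf1r (-0.40) and C1qb (-0.20) were all below 0, with adjusted p = 1 in limma and 0 genes called. P2ry12 was then at -0.62, Nckap1l at 0.28 and Lcp1 at -0.02.

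**Figure D4:**
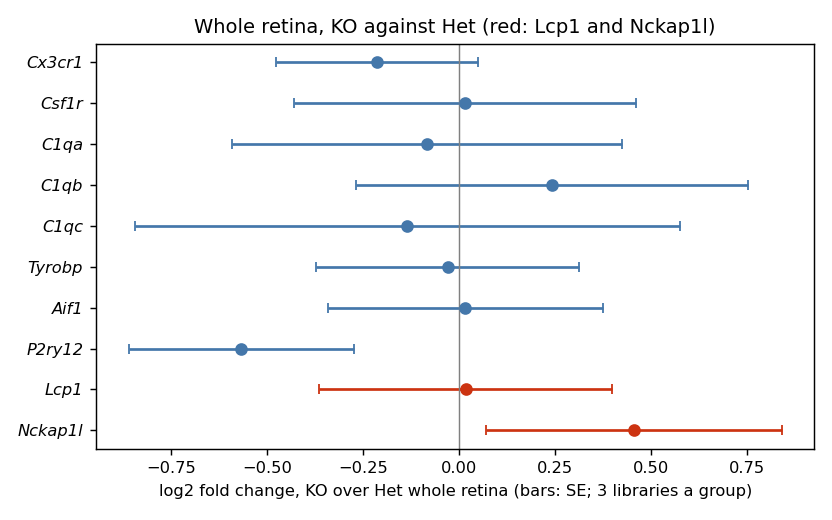
Points give the log2 fold change of KO over Het whole retina for the 10 genes and bars the SE, with 3 libraries a group and Lcp1 and Nckap1l in red. P2ry12 lies lowest (-0.57) and Nckap1l highest (0.46), and adjusted p is 1 for all 10.

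As to whether the KO difference in rods departs from that in retina, the interaction over 12 libraries gave -4.14 (SE 0.95) for Lcp1 and -3.54 (SE 0.97) for Nckap1l, shown without a p-value. For the 8 markers it lay between -0.39 (P2ry12) and 0.33 (C1qc), with adjusted p from 0.865 to 0.994. Without KO retina replicate 3 the marker range was -0.31 (P2ry12) to 0.99 (C1qc), and Lcp1 and Nckap1l were at -4.03 and -3.33. No gene was called in this fit (0 of 17192, percent called 0), while 604 had an unadjusted p below 0.05.

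Across the 6 retina libraries Csf1r and the C1q genes moved together. Pearson's r of log2 values was 0.98 for Csf1r and C1qc, 0.93 for C1qa and C1qb, and 0.90 for C1qb and C1qc, given as a description over 6 libraries that also share depth and composition. With Csf1r, Tyrobp had r = 0.81, Cx3cr1 0.53 and Nckap1l 0.42, whereas P2ry12 had -0.23, Lcp1 -0.37 and Aif1 -0.39. The 2 genes of the pair thus differed in sign here, and the highest r of Nckap1l with a marker was 0.70 (C1qb). The 4 genes summed to 212, 460 and 236 in Het retina and 276, 163 and 541 in KO retina. The GC trend of a library, the log2 shift of its GC-rich against its GC-poor genes, was -0.24, 0.86 and -0.84 in Het and 0.01, -0.63 and 0.90 in KO retina. Both libraries with a high sum were thus those with the highest trend, and these transcripts are GC-rich (54.5% for Csf1r, 57.4% to 59.5% for C1q). Het retina replicate 2 and KO retina replicate 3 also had the highest summed erythrocyte genes, 2661 and 2086 against 367 to 926 in the others. The part of GC content, blood or RPE in the C1q values was not tested.

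**Figure D5:**
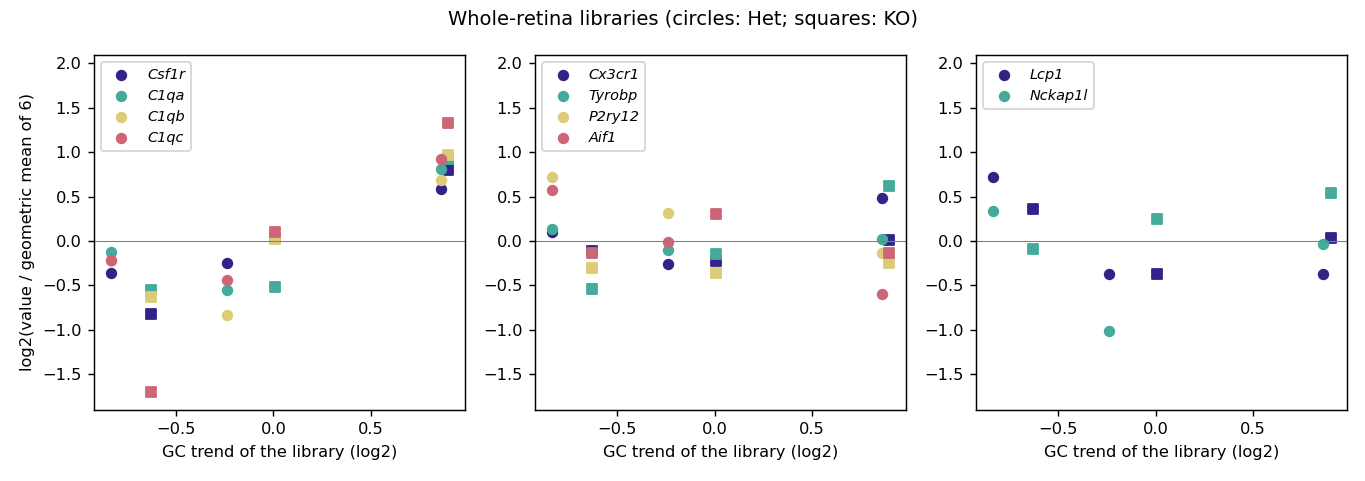
Each point is 1 gene in 1 retina library, with the GC trend of the library on the horizontal axis and log2 of the value over the gene's geometric mean of 6 libraries on the vertical axis (circles Het, squares KO). Csf1r and the C1q genes are highest in the libraries at 0.86 and 0.90, which the markers of the middle panel and the pair on the right do not share as a group.

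Most tested genes of a longer list of 35 microglia genes followed the markers between fractions. In Het, 36.8% of all genes tested were called lower in rods and 21.4% higher. Of the 21 tested from this list, 17 were lower, 0 were higher and 4 were not called, with a median log2 difference of -3.07. Among them were the protease Ctss (167, 208 and 260 in Het retina, 11, 3 and 2 in Het rods) and the pore protein Mpeg1 (82, 91 and 123 against 2, 3 and 1). The lipid phosphatase Inpp5d was 1 of the 4 exceptions, at 20, 30 and 19 in Het rods and 40, 32 and 22 in Het retina. Ikzf1, also on this list, was at 13, 2 and 27 in Het rods and 10, 6 and 14 in Het retina. In ppm, Ikzf1 in rods was at 125.0% of the retina level in Het and 35.7% in KO. In rods of KO against Het, 0 of the 4 tested genes of this list were called, against 13.1% of all genes tested. Inpp5d was at 37, 38 and 32 in KO rods (log2 fold change 0.69, SE 0.26, adjusted p = 0.0746).

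Blood-lineage actin regulators were read from a list of 15. Of the 8 genes tested in Het, 2 were higher in rods, 5 lower and 1 not called, where 21.4% of all genes tested were called higher and 36.8% lower. The median log2 difference was -1.67, compared with -0.11 over all genes. Hcls1, a cortactin relative, rose in Het rods over retina, at 530, 732 and 624 against 343, 492 and 257 (log2 difference 1.07, SE 0.24, adjusted p = 0.00456). Plek (pleckstrin) was at 283, 263 and 248 in Het rods and 249, 172 and 253 in Het retina, and passed only narrowly (0.50, SE 0.19, adjusted p = 0.0433). It was not called with the GC trend removed (0.32), with library size scaling (0.09) or without any one of 5 libraries (0.34 to 0.64). In rods of KO against Het 4 were tested and 0 called, against 13.1% of all genes tested. Plek was at 197, 161 and 174 in KO rods (-0.49, SE 0.13, adjusted p = 0.0185), under the fold threshold. Dock2, a Rac activator of leukocytes too low to be tested in rods, was at 2, 8 and 41 in Het rods against 0, 4 and 0 in KO rods. Ikzf1, a lymphoid factor from the longer microglia list, was at 13, 2 and 27 in Het and at 0, 8 and 2 in KO rods. Dock2 and Ikzf1 were both highest in Het rod replicate 3. They were picked after values were seen, and in both genes the genotypes overlapped. Of the 4 genes tested in rods from each of these lists, 2 had a fold change below 0. Hcls1, for example, was at 614, 720 and 768 in KO rods and not lower than in Het rods.

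The widely expressed relatives of the pair gave a different picture. Nckap1, the paralogue of Nckap1l outside blood cells, was at 1407, 1177 and 1268 in Het rods against 987, 929 and 1004 in KO rods. That difference was -0.31 on the log2 scale (SE 0.09, adjusted p = 0.0256), under the fold threshold. Of all genes tested in rods, 1.91% were called lower in KO. Of 11 WAVE complex and plastin genes tested in rods, 1 was lower and 10 were not called, with a median of -0.07. The one called was Pls3 (T-plastin, a paralogue of Lcp1), at 90, 59 and 86 in Het and at 48, 28 and 50 in KO rods. Its log2 fold change was -0.81 (SE 0.25, adjusted p = 0.0365), and with the GC trend removed it was not called (-0.63, adjusted p = 0.119). The call was also lost without Het rod replicate 1 (-0.72) or 3 (-0.74) and without KO rod replicate 1 (-0.92) or 2 (-0.58), and with plain empirical Bayes or in 1 fit of all 12 libraries. Pls1 (I-plastin) was at 306, 290 and 244 in Het and at 306, 230 and 279 in KO rods (0.04, SE 0.14, adjusted p = 0.87).

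Ligands of the microglial receptors were far lower in rods than in retina. Cx3cl1, the fractalkine that Cx3cr1 binds, was at 1025, 1597 and 799 in Het retina and 13, 21 and 13 in Het rods (log2 difference -5.75, SE 0.30, adjusted p = 1.25e-06). Il34 was at 73, 112 and 67 in Het retina and 1, 3 and 1 in Het rods, and Csf1 at 45, 80 and 73 against 1, 1 and 6. Of the 7 ligand and partner genes tested, 6 were lower in Het rods and 1 was not called. Of all genes tested, 36.8% were called lower there. Between genotypes 0 of the 8 tested in retina and 0 of the 3 tested in rods were called. The shares over all genes tested were 0% and 13.1%.

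Genes of the complement cascade and of reactive microglia were read from lists of 16 and 19. In whole retina 0 of the 13 tested complement genes and 0 of the 11 tested reactive genes were called between genotypes. Of all 16863 genes tested there, 0 were called. C4b was at 86, 140 and 73 in Het and at 65, 72 and 274 in KO retina, and again highest in KO replicate 3. Il1b, Tnf, Ccl3, Ccl4 and Il10 did not exceed 5 in any of the 12 libraries. In rods, the membrane inhibitor Cd59a was lower in KO (2256, 2408 and 2040 against 1719, 1211 and 1383, log2 fold change -0.56, SE 0.11, adjusted p = 0.00662). Of the 2 complement genes tested in rods 1 was called lower, and of the 6 reactive genes 2 were called higher. Of all genes tested in rods, 1.91% were called lower and 11.2% higher. Apoe, a lipid carrier that glia make, was higher in KO, at 77, 112 and 118 in KO rods beside 36, 56 and 65 in Het rods (1.04, SE 0.25, adjusted p = 0.0126). The protease gene Ctsd was also higher (3303, 3596 and 3672 against 2291, 2779 and 2736, 0.52, SE 0.09, adjusted p = 0.00417). With the GC trend removed none of these 3 was called, and the fold changes were -0.40, 0.29 and 0.06. Without KO rod replicate 2, Cd59a (-0.48) and Ctsd (0.48) fell short of the fold threshold, as did Ctsd without Het rod replicate 1 (0.41) and with library size scaling (0.44). Plain empirical Bayes ended the calls of Cd59a and Apoe, and 1 fit of all 12 libraries those of all 3.

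Markers of other cells were set beside the rod difference of the pair. Het rods held 83 to 115 for 10 endothelial and pericyte genes, 1421 to 2072 for 9 Müller and astrocyte genes and 19 to 60 for 5 erythrocyte genes, and KO rods held 91 to 134, 1336 to 2005 and 23 to 52. All of these ranges overlapped between genotypes. Perivascular macrophage and monocyte genes (9 genes) summed to 7 to 12 in Het and 6 to 17 in KO rods, with Ccr2 at 0 throughout. Granulocyte and lymphocyte genes (12 genes) summed to 2 to 3 in Het and 0 to 5 in KO rods. Their defining markers Cd3e, Cd2 and Mpo were at 0 in all 12 libraries.

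Genes with the most similar profile were named by Pearson's r of log2 values. Over 12 libraries the mean of the 8 markers was most similar to Glul (r = 0.996), Man1c1 and Mmp14 (both 0.995), Smo (0.995) and Vstm4 (0.995). Glul is the glutamine synthetase of Müller cells, so a gene of another cell type lay closest. Like the markers, Glul was far lower in every rod library than in every retina library. Genes of many non-rod cells share that drop, so a high r over the 12 libraries does not mark a cell type. Over the 6 rod libraries Lcp1 was most similar to Churc1 (r = 0.999), the pseudogene Gm4977 (0.992), A430035B10Rik (0.992), Atraid (0.988) and Zfp58 (0.986). Of these only Gm4977 differed on a like scale, at 29, 66 and 161 in Het rods against 5, 20 and 8 in KO rods. The nearest to Nckap1l were Lsm3 (0.998), Eif3m (0.992), Rps4x-ps (0.991), Gm13453 (0.988) and Mrpl43 (0.985). With 6 points and over 13184 genes searched, such values describe these libraries only.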

How the data were processed

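Poly(A) RNA was measured in 12 libraries, grouped by genotype and tissue labels, with replicate numbers from the titles. The submitters' processing notes name CASAVA 1.8.2, HISAT2, DESeq2, edgeR and build GRCm39. The counting tool, annotation and strand are not given in the sources used here. The table the authors deposited holds a signal proportional to read counts: reads of each library were multiplied by 1 factor and rounded, which was inferred from equal totals and from emptied or overfilled low integers. A count test had been planned and was replaced by limma 3.58.1 in R 4.3.3 because of this. For Het retina replicate 3 the best factor (0.996) was no better than 1. Columns of other samples numbered 0. The 2 most similar libraries of a group shared 0.714% of values of at least 100, so none was a duplicate.

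Values were scaled with TMM factors, a pseudocount of 2 was added, and log2 values were fitted with limma's trend and robust options on the groups compared. Genes needed a value of about 10 in at least 3 libraries and a sum of at least 15. P-values were adjusted over all genes tested (Benjamini-Hochberg). Levels in ppm are parts of the library total set to 1000000. Exon lengths and GC content came from GENCODE models of GRCm38, matched by Ensembl identifier. On simulated data with 200 of 13047 genes given a log2 difference of 1 between KO and Het rods, 74% were recovered and 3.27% of calls were false. Python 3.11.15, NumPy 2.4.6 and matplotlib 3.10.9 were used.

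Replicate numbers paired Het rod and Het retina libraries (correlation of deviations from group means 0.43, 0.38 and 0.24). The titles give the numbers, and no source states a shared mouse. Genes named are the 10 members and, from each of 17 lists, at most the 4 with the highest mean and those called, plus Ptpn11. The Top2a, Lef1, Msn, Dock2, Ikzf1, Inpp5d, Mpeg1, Pls1, Csf1, C4b, cytokine and zero-marker values were added after values were seen. Values of 2 listed genes are not reported here. The members and lists were chosen with earlier results of these data known. Alternatives were other scalings, pseudocounts, filters and models, removal of the GC trend, a replicate block, and leaving out each library.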

Additional observations from a re-analysis of the deposited data

How the results depend on the processing

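In Het and KO rods against retina, all tested markers remained called under every alternative in which they could be tested. A filter of 50 left 2 to be tested, called 2 in each genotype, against 7 and 8. Under library size scaling the median of all genes shifted to -0.51 in Het and -0.55 in KO, from -0.11 and -0.02. Marker sums in KO rods were at 2.12% of KO retina after TMM scaling and 1.46% before. Leaving out a library gave 1.24% to 2.57% for Het and 1.23% to 1.97% for KO, 127.8% to 372.9% (Het) and 3.19% to 14.3% (KO) for Lcp1, and 22.6% to 103.5% and 1.99% to 3.98% for Nckap1l.

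In KO against Het rods 1710 genes were called (85.4% higher), but 352 with the GC trend removed (39.8% higher), 0 in 1 fit of all 12 libraries, 922 with plain empirical Bayes, and 953 to 1976 without 1 library each, lowest without Het rod replicate 1. Rom1 and Reep6, rod genes higher in KO, reversed with the GC trend removed (-0.034 and -0.234) and with the block added to it (-0.034 and -0.234). The fold of the pair depended most on the pseudocount, from -2.75 (8) to -4.86 (0.5) for Lcp1 and from -1.87 to -3.83 for Nckap1l. In retina 0 to 1 genes were called without 1 library each, and 0 to 1 in the interaction. Uncalled members changed sign somewhere in retina (7 genes) and in the interaction (8 genes).

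With the replicate number as a block, 9829 genes were called in Het rods against retina (9376 without it), 9878 in KO (10033), 1885 in rods of KO against Het (1710), and 400 with the GC trend removed as well (43% higher). It changed no call of the 8 markers in any comparison, nor of the pair in retina. Pairing by number was weaker for KO rods and retina (correlations 0.31, 0.02 and 0.20, mean 0.18 against -0.09 for different numbers). For the rod groups the mean was 0.05 (0.10, 0.02 and 0.04), and for the retina groups -0.11 (0.39, -0.58 and -0.15). Depth limits the marker genes in rods, where 41 of 48 values were at or under 3 reads.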
